A study of Mus musculus with 6 samples.

Results

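The chromosome 5 locus described here consists of 8 long non-coding RNA (lncRNA) features among the 24817 listed in the deposited table, and all 8 lie within the interval from 105879583 to 105962888 (build mm10, as listed). They are ENSMUST00000196459, NONMMUT053524.2, NONMMUT119005.1, NONMMUT119006.1, NONMMUT119011.1, NONMMUT119012.1, NONMMUT119017.1 and NONMMUT119019.1, and 14 other listed features share the interval. The members were chosen by identifier, with their measured group difference (the counts of one group against the other and its adjusted p) already known. That difference is therefore a description here and carries no test. All 8 had an adjusted p under 0.05 in the edgeR fit made here, with NONMMUT119005.1 nearest to that threshold at 0.0446. NONMMUT119024.1, at 0.047, passed as well but is not among the members, and NONMMUT119009.1, at 0.066, was the nearest feature beyond it. In the authors' own deposited comparison, the q-value was under 0.05 for only some of the 8. How many members pass under the alternative settings was not counted.

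The cells were RAW264.7, an established mouse macrophage line, sequenced in 6 libraries. In both groups the cells received lipopolysaccharide (LPS, a bacterial cell wall component that activates macrophages) for 24 h and then medium conditioned by bone cement. In the LPS_ES_PMMA group (3 libraries) the cement was polymethyl methacrylate (PMMA) with enoxaparin sodium, a low-molecular-weight heparin. In the LPS_PMMA group (3 libraries) it was PMMA cement according to titles and treatment labels, whereas the sample descriptions and the table's columns name LPS alone. The cell line has no stated clone or passage, and no label ties the 3 libraries of each group to separate cultures, so p-values measure only the spread between these libraries, which may be technical. Counts over all listed features ranged from 1123551 (LPS_ES_PMMA 2) to 3697638 per library. CPM below are counts scaled to a common total after TMM, which corrects library totals for composition. The table holds lncRNA features, so the macrophage label could be read only through features tied to marker genes. Of 8 macrophage markers, 2 had such features, among them the antisense feature MSTRG.25685.1 at Adgre1, and of 6 markers of other cell types 2 had them. The Adgre1 sense feature NONMMUT030162.2 held 2, 0 and 2 reads in LPS_ES_PMMA libraries and 0 in each LPS_PMMA library. At Ptprc, NONMMUT002943.2 held 5, 0 and 3 reads against 0 in each. At Cd3e, ENSMUST00000214762 and ENSMUST00000216159 held 12 and 3 reads over the 6 libraries. All of these had too few reads for the edgeR test. MSTRG.25685.1 held 66 to 159 reads per library, with 39.0 ± 5.69 CPM in LPS_ES_PMMA and 57.3 ± 6.29 in LPS_PMMA, apart on CPM and overlapping on FPKM (edgeR log2 fold change -0.55 with SE 0.25 and an adjusted p of 0.238). The Krt8 antisense feature NONMMUT096548.1 held 63 to 95 reads in LPS_PMMA and 115 to 220 in LPS_ES_PMMA (edgeR log2 fold change 0.85 with SE 0.23 and an adjusted p of 0.088). The listed positions of these marker features were not compared with gene models. The part of any marker feature in the values of the locus was not tested.

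A pair of protein-coding genes bears on this stretch of chromosome 5. Zfp326 encodes a zinc finger protein of the DBIRD complex, which links transcription by RNA polymerase II to splicing. Lrrc8d encodes a subunit of volume-regulated anion channels. These channels are assembled from LRRC8A and other LRRC8 proteins, open when a cell swells, and let chloride and small organic solutes leave the cell. LRRC8D favours the passage of organic solutes such as taurine, and LRRC8 channels can also carry the cyclic dinucleotide cGAMP, a messenger of the STING pathway of innate immunity. In the GENCODE M21 annotation of the stated build, Zfp326 spans 105876565 to 105915818 and Lrrc8d spans 105699969 to 105832436, both on the plus strand, with Lrrc8c (105519388 to 105613018) and Lrrc8b (105415775 to 105490074) before it.

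Listed positions were compared with gene models first, because they decide which gene a reader would look up. As listed, 2 of the 22 features of the interval lay inside a protein-coding gene, both in introns of Zfp326. These were the member ENSMUST00000196459 and the non-member NONMMUT053522.2. The other 7 members and 13 non-members lay outside protein-coding genes, and none of the 22 overlapped Lrrc8d. Ends of assembled transcripts gave a different picture. From 100000001 to 110000000 on the chromosome, both ends of 12 of 17 assembled transcripts came within 150 bp of those of a protein-coding transcript when they were moved by -147900 bp, and 0 of 17 did so as listed. These 12 are few loci, since 11 belong to the assembled locus at the position of Spp1 and 1 to that of Atp5k. Measured at each matched end, the size of the offset was between 147800 and 147958 bp. Annotated features behaved otherwise, since all 260 Ensembl transcripts of chromosome 5 found in the annotation had the same start and end as in the table. Moved by the same offset, 22 of the 22 features of the interval overlapped Lrrc8d. ENSMUST00000196459 then overlapped exons of its transcripts by 540 bp, including the second exon (145 bp) of ENSMUST00000060531, the other 7 members lay in an intron, and 4 non-members overlapped the coding part of its last exon. The assembled transcript MSTRG.43838.5 is listed before the interval, and the table relates it to Gm10359 as antisense. At that offset its lower end lay 13 bp from a Lrrc8d transcript start. Strand was not compared, and the offset itself varies by more than this distance. Gene models of GRCm39, the mouse assembly after mm10, were not used here, and the cause of the offset was not tested.

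The sequences below show the places that the listed and the moved positions point to. The first 150 bases of ENSMUST00000196459 (chr5:105879583-105879732, plus strand, GRCm38, GENCODE M21) are those of the member with the most reads, as annotated in the Zfp326 intron. The Lrrc8d coding start (chr5:105811726-105811875, plus strand, GRCm38, GENCODE M21) opens the last exon, over which the most abundant features of the interval fall when moved; its start codon is in capitals. The promoters are the 250 bases before the first listed start of each gene from RefSeq (GRCm38.p6), chr5:105699719-105699968 for Lrrc8d and chr5:105876318-105876567 for Zfp326, both on the plus strand. Capitals there mark matches to the GC box (GGGCGG) and the CCAAT box (CCAAT), searched on both strands.
Gm43817: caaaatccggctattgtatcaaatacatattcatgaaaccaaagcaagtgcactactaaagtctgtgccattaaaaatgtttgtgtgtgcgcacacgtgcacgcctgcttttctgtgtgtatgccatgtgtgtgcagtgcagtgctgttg
Lrrc8d coding start: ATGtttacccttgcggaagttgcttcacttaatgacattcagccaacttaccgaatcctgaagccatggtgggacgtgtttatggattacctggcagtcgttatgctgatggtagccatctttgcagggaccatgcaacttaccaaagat
Lrrc8d promoter: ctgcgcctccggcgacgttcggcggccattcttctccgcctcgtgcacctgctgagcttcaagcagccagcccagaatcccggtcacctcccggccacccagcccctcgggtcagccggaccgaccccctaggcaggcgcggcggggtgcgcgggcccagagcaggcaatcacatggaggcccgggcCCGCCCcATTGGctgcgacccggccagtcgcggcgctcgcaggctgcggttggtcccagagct
Zfp326 promoter: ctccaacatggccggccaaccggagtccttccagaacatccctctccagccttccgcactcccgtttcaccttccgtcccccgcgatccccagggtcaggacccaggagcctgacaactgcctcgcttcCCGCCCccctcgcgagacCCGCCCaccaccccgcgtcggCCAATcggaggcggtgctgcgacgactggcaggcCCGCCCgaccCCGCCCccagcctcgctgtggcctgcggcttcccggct
The Lrrc8d window held 1 GC box and 1 CCAAT box match, and the Zfp326 window held 4 and 1. Of 32851 promoter windows of this length in the RefSeq table, 32.7% held a GC box and 33.8% a CCAAT box. RefSeq lists a pair of promoters for Lrrc8d, of which the first is shown.

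All 8 members were lower with enoxaparin cement in every comparison of a treated with a control library, on CPM and on the authors' FPKM (fragments per kilobase of transcript, scaled by library size). Groups without overlap in this direction were seen for 14.6% of all tested features on CPM and for 5.89% on FPKM. An adjusted p under 0.05 with lower values was reached by 2.58% of all tested features and with higher values by 2.18%. As the contrast chose the members, nothing is read from these shares. In bulk RNA, fewer cells that make a transcript and less of it per cell cannot be told apart. Fitted log2 fold changes of the members ran from -1.96 to -1.13 with a median of -1.72, while the median over all 8873 tested features was 0.03. All 8 passed edgeR's filter on low counts, with 208 to 952 reads over the 6 libraries. All are listed as single blocks, their length (1302 to 3249 nt) being equal to their span, and no member overlaps another.

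**Figure D1:**
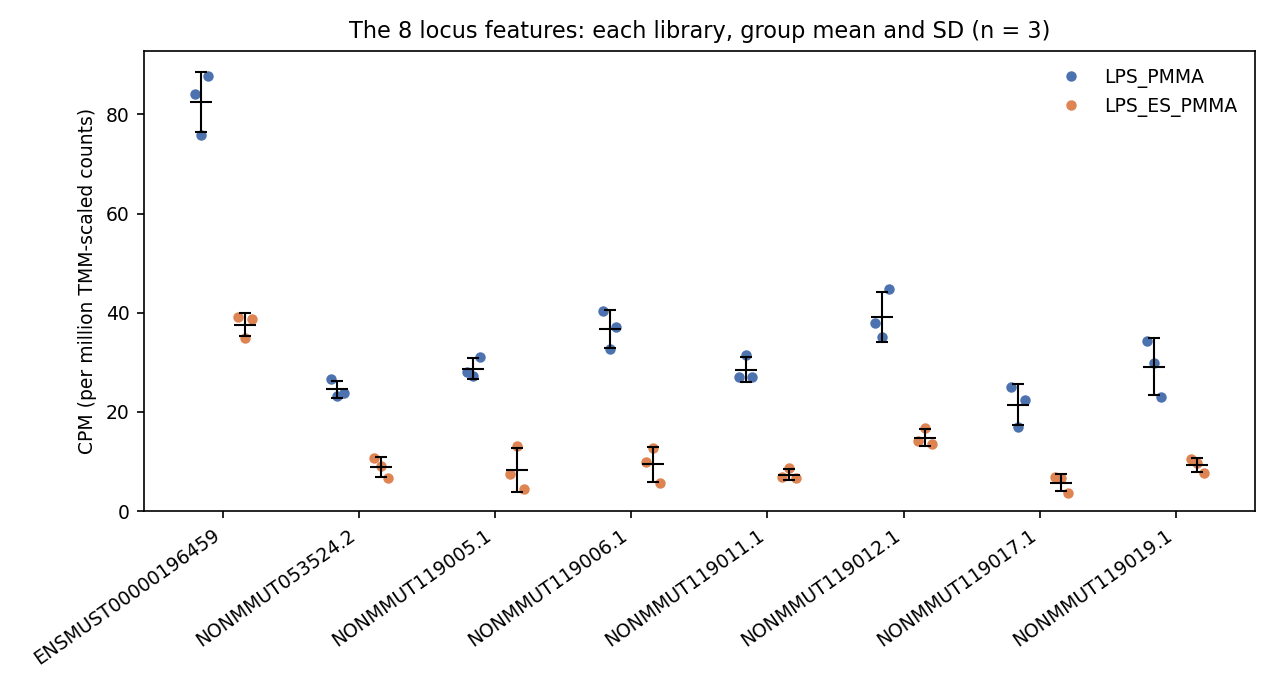
CPM (TMM-scaled counts) of the 8 features in each library, ordered by position, with the group mean (bar) and SD (n = 3). LPS_ES_PMMA libraries lie below LPS_PMMA libraries for every feature, and ENSMUST00000196459 is the highest in both groups.

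ENSMUST00000196459 (Gm43817, 105879583 to 105881844) is the only member with an Ensembl identifier and is a model of type TEC, a class of transcripts that still await experimental proof. It held 39.1, 34.95 and 38.7 CPM in LPS_ES_PMMA 1, 2 and 3 and 84.1, 76.0 and 87.7 CPM in LPS_PMMA 1, 2 and 3. Its replicates were close together, and the groups were far apart relative to that spread, with means of 37.6 ± 2.30 and 82.6 ± 6.03 CPM (SD, n = 3). The fitted log2 fold change was -1.13 (SE 0.23), the smallest in size of the 8. It took between 27.7% and 44.4% of the members' reads of a library.

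NONMMUT053524.2 (105916053 to 105917742) starts just after the listed end of Zfp326, and the table relates it to that gene as antibidirectional. It held 10.7, 9.12 and 6.74 CPM in LPS_ES_PMMA libraries against 26.5, 23.2 and 23.8 CPM in controls. The 3 control libraries lay close together and all above the treated ones. Its fitted log2 fold change was -1.46 (SE 0.28).

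The other 6 members are listed as intergenic and lie one after another between Zfp326 and the most abundant features. NONMMUT119005.1 (105921577 to 105922878) held 7.53, 13.2 and 4.38 CPM in LPS_ES_PMMA libraries against 28.0, 27.2 and 31.1 CPM in controls. Its treated libraries were the most uneven of all members, with a coefficient of variation of 53.3% against 7.12% among controls, and a fitted log2 fold change of -1.81 (SE 0.40). At 13 to 31 reads per treated library, counting alone gives about 20.7%. NONMMUT119006.1 (105923248 to 105924908) held 9.96, 12.7 and 5.73 CPM in LPS_ES_PMMA libraries against 40.3, 32.7 and 37.2 CPM in controls. It had the largest change of the 8, a log2 fold change of -1.96 (SE 0.33), and LPS_ES_PMMA 3 was again its lowest library.

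NONMMUT119011.1 (105931572 to 105933446) held 6.80, 8.61 and 6.74 CPM in LPS_ES_PMMA libraries against 27.0, 31.5 and 27.1 CPM in controls. Both groups were even, and its log2 fold change of -1.96 (SE 0.26) was nearly the same as that of NONMMUT119006.1. NONMMUT119012.1 (105934810 to 105937164) held 14.1, 16.7 and 13.5 CPM in LPS_ES_PMMA libraries against 37.9, 35.03 and 44.8 CPM in controls, a log2 fold change of -1.41 (SE 0.25). It had the most reads of the 6 intergenic members.

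NONMMUT119017.1 (105946236 to 105949255) held 6.80, 6.59 and 3.71 CPM in LPS_ES_PMMA libraries against 25.1, 16.9 and 22.4 CPM in controls. It had the fewest reads of the 8, and its log2 fold change was -1.90 (SE 0.34). NONMMUT119019.1 (105951733 to 105954981), the longest and last member, held 10.4, 9.62 and 7.75 CPM in LPS_ES_PMMA libraries against 34.4, 29.9 and 23.1 CPM in controls. Its controls were spread more widely than its treated libraries, without overlap, and its log2 fold change was -1.64 (SE 0.28).

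Summed over the 8 members, the libraries held 105, 111 and 87.3 CPM in LPS_ES_PMMA libraries against 303, 272 and 297 CPM in controls. The means were 101 ± 12.6 and 291 ± 16.4 CPM, a ratio of 2.87-fold. In reads these sums were 434, 220 and 259 against 617, 692 and 823. Without ENSMUST00000196459 the ratio was 3.27-fold.

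Levels of different features can be compared only per length, that is on FPKM. In LPS_PMMA the order of mean FPKM began with ENSMUST00000196459 (21.7 ± 5.51), followed by NONMMUT119005.1 (13.2 ± 3.65) and NONMMUT119006.1 (13.0 ± 2.63), and ended with NONMMUT119019.1 (5.18 ± 0.421) and NONMMUT119017.1 (4.17 ± 0.995). In LPS_ES_PMMA it began with ENSMUST00000196459 (13.3 ± 2.19) and NONMMUT119005.1 (5.22 ± 2.87) and ended with the same last pair, at 2.32 ± 0.651 and 1.55 ± 0.630. From the second to the sixth place, neighbours differed by less than the larger of their SDs in both groups. The first and the second, the sixth and the seventh, and the last pair differed by more than that.

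**Figure D2:**
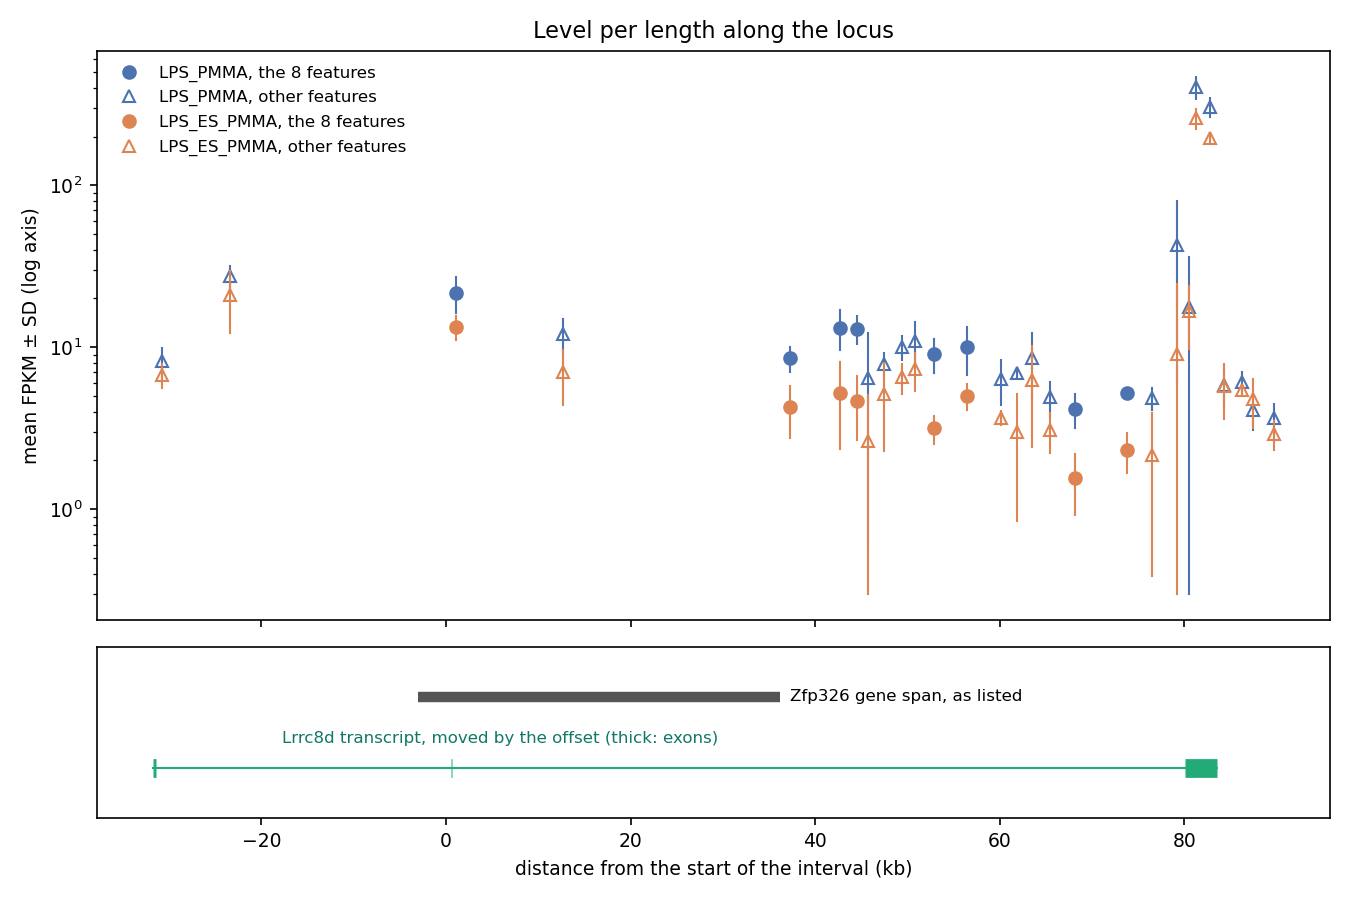
Mean FPKM (log axis) with SD of each tested feature by group against the distance from the start of the interval in kb, with filled circles for the 8 features and open triangles for others (SD bars stop at 0.3 FPKM where they would go lower). Below, the span of Zfp326 as listed and a Lrrc8d transcript moved by the offset; the highest levels, 195 to 406 FPKM, lie at the distance of its last exon.

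The most abundant features of the interval were not members. NONMMUT119023.1 (105959933 to 105961661) held 428, 648 and 635 CPM in LPS_ES_PMMA libraries against 1269, 1260 and 1061 CPM in controls. NONMMUT119024.1 (105961850 to 105962888) held 231, 238 and 299 CPM against 588, 540 and 490. For both, the groups lay apart, with log2 fold changes of -1.07 (SE 0.27) and -1.07 (SE 0.24). Per length, NONMMUT119023.1 stood at 406 ± 63.1 FPKM in LPS_PMMA and 259 ± 36.6 in LPS_ES_PMMA, and NONMMUT119024.1 at 304 ± 41.9 and 195 ± 11.04 FPKM. Moved by the offset, 100% of each span fell within the last exon of Lrrc8d. The 17 features that then fell in a Lrrc8d intron had 4.17 to 13.2 FPKM in LPS_PMMA, with a median of 8.54. By contrast, 2 listed features whose spans overlap that exon where build mm10 places it, NONMMUT120952.1 and the Lrrc8d antisense RNA ENSMUST00000135958 (Lrrc8dos), held 0 to 8 reads per library. Those 2 are spliced antisense models that reach only the non-coding end of the exon, so they do not cover the same bases.

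NONMMUT119021.1 and NONMMUT053525.2 overlap each other, and NONMMUT053525.2 overlaps NONMMUT119023.1. NONMMUT119021.1 held 2, 1 and 228 reads in LPS_ES_PMMA libraries against 581, 506 and 2 reads in controls. NONMMUT053525.2 held 254, 146 and 103 reads in LPS_ES_PMMA libraries against 0, 189 and 391 reads in controls, where the 0 of LPS_PMMA 1 allows up to 1.47 CPM (3 counts; counting error only). Single libraries of both groups were near 0 for NONMMUT119021.1, so the group means of these features do not describe their libraries. Summed, the 3 overlapping features held 490, 723 and 747 CPM against 1554, 1533 and 1203 CPM, with no overlap between the groups. None of the 8 members overlaps another listed feature of the interval.

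**Figure D3:**
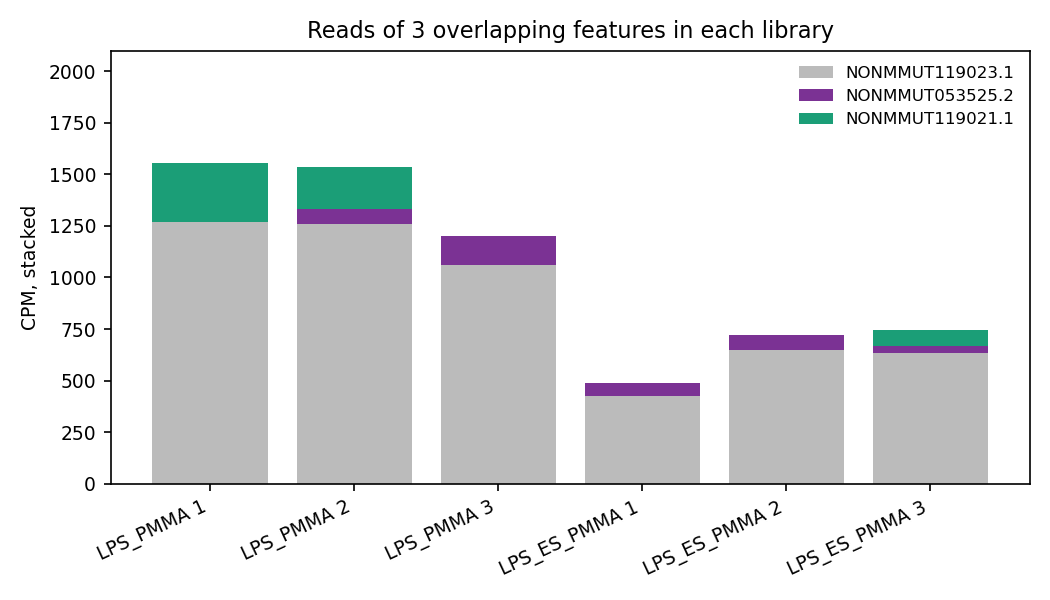
Stacked CPM of 3 features with overlapping spans in each library. NONMMUT119021.1 is near 0 in 3 of the 6 libraries while the sums stay between 490 and 1554 CPM and separate the groups.

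The remaining non-members stood among the members or just after them. Of the 14 non-members, all tested, 14 had a log2 fold change below 0 (48.2% of all tested features), with a median of -1.11. Groups lay apart for 11 of the 14 on CPM (14.6% of all tested features) and for 6 on FPKM (5.89%). The interval was chosen with results of this contrast known, and the non-member NONMMUT119024.1, itself called, sets its end. Neighbouring or overlapping features of a locus are also not separate units. These counts are therefore a description, and nothing is read from the shares beside them. NONMMUT053522.2, the other feature in a Zfp326 intron, held 14.8, 24.3 and 13.1 CPM in LPS_ES_PMMA libraries against 37.9, 42.1 and 40.1 CPM in controls. NONMMUT119014.1 held 7.04, 12.2 and 2.02 CPM against 30.5, 20.9 and 20.2, a log2 fold change as large as that of several members (-1.78) but with a larger error (SE 0.55). NONMMUT119020.1 behaved alike (-1.63, SE 0.49). NONMMUT119008.1, NONMMUT119009.1, NONMMUT119010.1, NONMMUT119013.1, NONMMUT119015.1 and NONMMUT119016.1 had log2 fold changes between -1.20 and -0.89, each with groups apart on CPM. NONMMUT119007.1 held 9, 0 and 13 reads in LPS_ES_PMMA libraries against 0, 21 and 28 reads in controls, and its groups overlapped.

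Shares of reads within a library do not depend on how libraries are scaled. The members took 11.5%, 9.41% and 7.24% of the interval's reads in LPS_ES_PMMA 1, 2 and 3, with exact 95% intervals (Clopper-Pearson) of 10.5 to 12.6%, 8.26 to 10.7% and 6.41 to 8.14%. In LPS_PMMA they took 11.4%, 10.7% and 13.5%, with intervals of 10.6 to 12.3%, 9.94 to 11.5% and 12.7 to 14.4%. The groups overlapped, with means of 9.40 ± 2.15% and 11.9 ± 1.47% (SD, n = 3). NONMMUT119023.1 and NONMMUT119024.1 together took 72.2%, 74.9% and 77.6% in LPS_ES_PMMA and 70.1%, 70.6% and 70.6% in LPS_PMMA, without overlap. That separation was lost when NONMMUT119021.1 and NONMMUT053525.2 were added, with shares of 79.0%, 81.2% and 86.8% against 80.8%, 81.3% and 77.0%. It thus depended on which features were counted, and the cause was not tested. Reads carry no molecular identifiers, so these intervals cover counting error only.

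**Figure D4:**
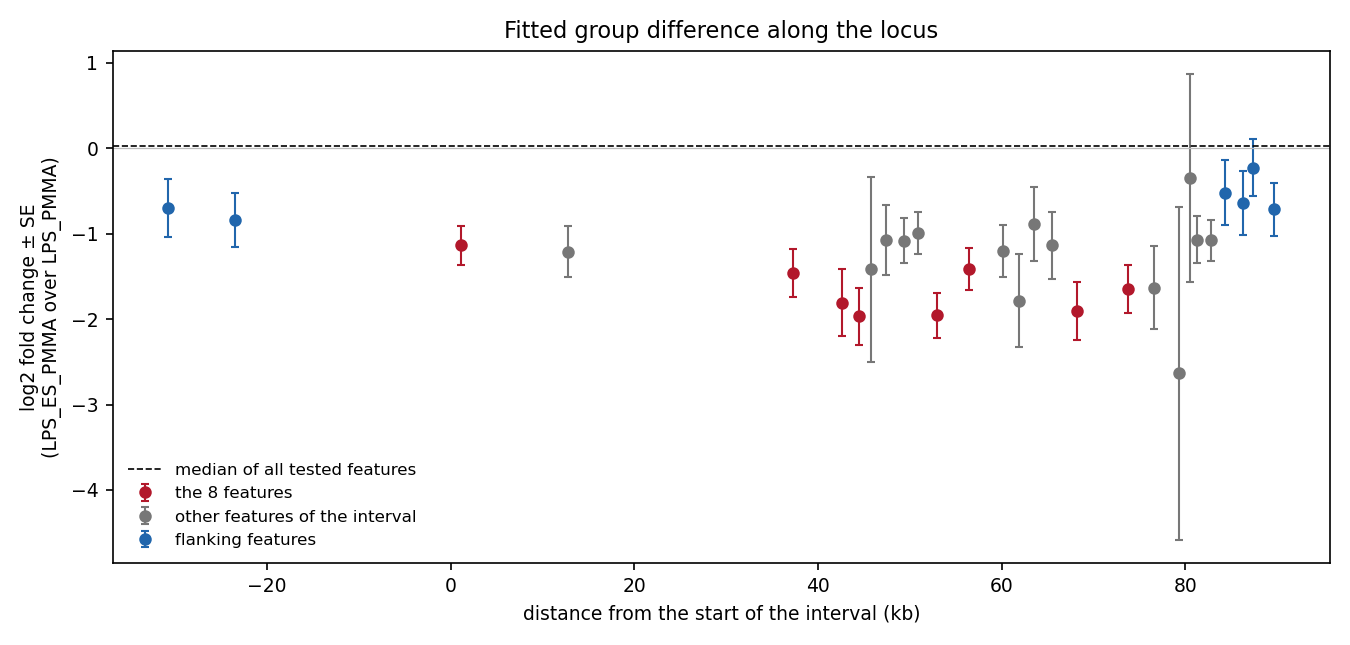
Fitted log2 fold change with SE (LPS_ES_PMMA over LPS_PMMA) of tested features against the distance from the start of the interval in kb. The 8 features (red) lie between -1.96 and -1.13, other features of the interval (grey) are all below 0, and the 6 nearest flanking features (blue) lie between -0.84 and -0.23, below the dashed median of all tested features (0.03).

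Features in the flanks, within 1 Mb on either side, are not among the members. The interval begins and ends at features with an adjusted p under 0.05 in this same contrast. A called neighbour could thus have been drawn into the interval, so the count in the flanks is a description and no independent test. Of 24 listed, 9 had enough reads, and 0 passed edgeR's quasi-likelihood test at an adjusted p of 0.05, against 4.76% of all tested features. At an unadjusted p under 0.05 there was 1, and DESeq2 and limma also called 0. That feature was MSTRG.43838.5 (105848676 to 105863607), with 25.1 ± 8.46 CPM in LPS_ES_PMMA and 45.3 ± 4.26 in LPS_PMMA (edgeR log2 fold change -0.84 with SE 0.31 and an adjusted p of 0.171). After the interval, NONMMUT119025.1, NONMMUT119026.1, NONMMUT119027.1 and NONMMUT119028.1 follow directly and had log2 fold changes between -0.72 and -0.23, none of which passed. At the offset these too fell within Lrrc8d, NONMMUT119025.1 with 125 bp in an exon and the others in an intron. So did NONMMUT149060.1, MSTRG.43838.5 and NONMMUT119004.1, which are listed before the interval. Whether any of these flank features differ from the interval itself was not tested.

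Scaling changed the size of the difference but not its direction among the members. Under column totals, where the median of all tested features was 0.82, the members had log2 fold changes from -1.14 to -0.35 with a median of -0.84. With library totals derived from the FPKM columns (median of all features 0.45), the members' median was -1.26. Relative to the median of all features, the members' median was -1.75 under TMM, -1.76 under the RLE factors, -1.66 with column totals and -1.71 with FPKM-implied totals. A change of scaling moves all features by nearly the same amount, so this distance could hardly change and is no test. Groups without overlap were more sensitive. Under column totals only 2 of the 8 members had them (2.95% of all tested features) and 0 of the 14 non-members, of which 13 were below 0.

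**Figure D5:**
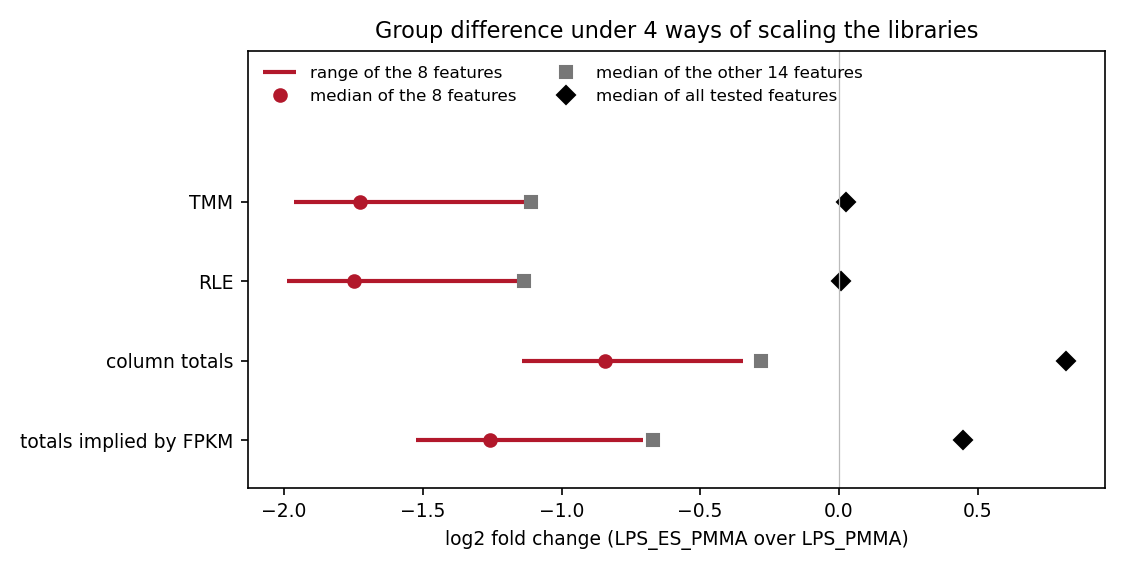
Log2 fold change (LPS_ES_PMMA over LPS_PMMA) under 4 ways of scaling the libraries, with the range and median of the 8 features, the median of the 14 other features of the interval and the median of all tested features. The members stay below 0 in each, and the distance of their median from that of all features is between 1.66 and 1.76. Scaling moves all features by nearly the same amount, so this distance could hardly change.

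Other genes of LRRC8 channels and cell volume control were read through lncRNA features that the table ties to them. Positions were compared with gene models only in the interval and its flanks. For features on other chromosomes, whether the listed position meets the named gene was not checked. Of 27 gene symbols searched, 14 had features, 34 in all, of which 12 were tested, and 1 fell, 0 rose and 11 did not pass. Over all tested features, 2.58% were called lower and 2.18% higher. The 1 call was kept in 2 of 6 fits with a library left out, those without LPS_PMMA 1 or LPS_PMMA 3, and the count was 0 in the other 4. It was also 0 with column totals, with FPKM-implied totals and in limma. The median log2 fold change of the 12 tested features was -0.00052.

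By the gene column of the table, 11 features outside the interval are tied to channel subunits, of which 3 were tested and 0 passed. ENSMUST00000187343, antisense to Lrrc8a, the subunit without which the channel does not form, held 10.6 ± 7.69 CPM in LPS_ES_PMMA and 10.4 ± 1.39 in LPS_PMMA (log2 fold change 0.06, SE 0.56). NONMMUT053491.2, in an intron of Lrrc8c as listed, held 4.41 ± 1.28 and 2.94 ± 2.46 CPM (log2 fold change 0.52, SE 0.59). At the offset it falls in an intron of Lrrc8b instead. MSTRG.43753.1, which the table places in an intron of Lrrc8d, held 11.03 ± 1.85 and 13.6 ± 3.26 CPM (log2 fold change -0.30, SE 0.30). It is an assembled transcript, and at the offset it falls outside protein-coding genes. NONMMUT058642.2, in an intron of Wnk1, a kinase that senses chloride, was abundant at 436 ± 49.1 and 477 ± 38.7 CPM (log2 fold change -0.13, SE 0.23). Its intronic neighbour NONMMUT058638.2 had a log2 fold change of 0.49 (SE 0.29). NONMMUT101911.1, antisense to Clcn7, a lysosomal chloride-proton exchanger, held 12.8 ± 1.93 and 11.9 ± 1.30 CPM. MSTRG.15315.1, listed in an intron of Slc12a7, a potassium-chloride cotransporter, held 2.58 ± 1.52 and 7.44 ± 4.87 CPM, with overlapping groups (log2 fold change -1.43, SE 0.62). None of these features passed. Of features tied to cGAMP and STING genes, 6 were listed, 2 tested and 0 called by edgeR or DESeq2, with 1 at an unadjusted p under 0.05 by edgeR. The 2 tested were MSTRG.3412.1, antisense to the DNA sensor gene Ifi204 (log2 fold change -0.89, SE 0.37), and NONMMUT138724.1 at the kinase gene Ikbke (0.50, SE 0.60).

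Features elsewhere in the genome with a pattern most like the summed members were sought among 8367 tested features with a mean FPKM of at least 1. The 5 highest Pearson correlations of log2(CPM + 1) over the 6 libraries lay between 0.994 and 0.996. They were NONMMUT112080.1 (in an intron of Bcar3, chromosome 3), MSTRG.49649.2 (chromosome 7), NONMMUT010787.2 (over an exon of Gosr1, chromosome 11), NONMMUT026952.2 (intergenic, chromosome 16) and MSTRG.22624.3 (chromosome 16). These correlations rest on 6 libraries that form 2 groups and share the scaling, and 336 features (4.02%) had one above 0.9.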

How the data were processed

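The deposited table gives counts and FPKM of 6 libraries and a comparison. Per the file headers the authors deposited raw read counts for each lncRNA transcript, and FPKM for each library and as group means. The log2 fold change, the p-value and the q-value of the authors were deposited as well, and no value of them is printed. Per the submitters' processing notes the build is mm10. Aligner, counter and use of strand: not given in the sources used here. Reads of antisense features and of genes opposite them cannot be told apart, and reads from different models of one exon may be divided between them. A number of 0 columns of per-sample values was left unused.

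Groups come from the titles, and columns were tied to samples by title or description. Features were filtered with filterByExpr (minimum count 10, minimum total 15), scaled by TMM and tested by quasi-likelihood in edgeR 4.0.16 (R 4.3.3), without covariates. Benjamini-Hochberg adjustment ran over 8873 features, with a threshold of 0.05. SEs follow from the F statistic. The fit was tested on simulated data. Alternatives were RLE factors, column totals, library totals implied by FPKM, no filter, DESeq2 1.42.0, limma 3.58.1 on log2(FPKM + 0.1) and log2(FPKM + 1) for features with a mean FPKM of at least 0.1, a replicate block and leaving out each library.

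The members and lists were chosen with earlier results of these data known. Named by rule are all members, other features of the interval with at least 10 reads, flank features past the threshold, list features that were called or among the 8 of their list with the highest mean FPKM, and the 5 features most like the summed members (mean FPKM of at least 1, outside the flanks). The rule named the interval spanned by the members, and the stated interval, which ends at NONMMUT119024.1, was used. No flank feature passed, so those named (NONMMUT053491.2 among them), the marker features and features over the Lrrc8d exon were picked after their values were seen. Gene ties use the table's gene column and GENCODE M21 names, and those on other chromosomes were not checked for an offset. A gene of the cell volume list, with its features, is counted but not reported here.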

Additional observations from a re-analysis of the deposited data

How the results depend on the processing

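The members' median log2 fold change (-1.72) became -0.84 with column totals and -1.26 with FPKM-implied totals, and that of their summed reads (-1.52) became -0.67 and -1.08. Leaving out ENSMUST00000196459 moved the sum to -1.71. Leaving out single libraries gave -1.81 to -1.54 for the median and -1.60 to -1.46 for the sum. Of 88 values of single members under 11 alternatives, 73 stayed within the spread between replicates, 15 moved beyond it and 0 changed sign. The number of non-members without overlap went from 11 to 0 with column totals and to 6 with FPKM-implied totals, both chosen after seeing the data. So was adding the overlapping features to the share of NONMMUT119023.1 and NONMMUT119024.1, whose group difference went from 4.46 to 2.59 percentage points. The difference in the members' share of the interval's reads (-2.48 percentage points) was -3.55 to -1.40 when single libraries were left out, also chosen after seeing the data, and it was -1.40 without LPS_ES_PMMA 3. Among the 22 features of the interval, the number over Lrrc8d was 0 as listed and 22 at the offset. Over all features, 422 calls became 174 without the filter, 142 and 125 in limma with the smaller and the larger pseudocount, and 50 to 136 without single libraries. The 1 call of the cell volume list was lost (0 calls) with column totals, FPKM-implied totals and limma, and 0 to 1 remained without single libraries; the cause was not tested. In the flanks, 0 were called in each alternative.

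With the replicate number as a block, 41 features were called over all features, 0 in the cell volume list and 0 in the flanks, and the members' median was -1.77. The numbers share no stated origin. Deviations from group means of same-numbered libraries correlated at -0.0196, -0.0246 and -0.0931, and those of pairs with different numbers at -0.0716 to 0.105. With 3 libraries per group, these values cannot tell whether same-numbered libraries share a culture or batch. At 11 to 124 reads per library for 7 of the members, counting error limits what can be said of single libraries.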

Other observations

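NONMMUT119013.1 was the steadiest of the non-members in LPS_ES_PMMA, at 4.61, 5.07 and 5.05 CPM, against 9.83, 12.2 and 11.9 CPM in controls. NONMMUT119007.1, 636 nt long, had no read in LPS_ES_PMMA 2 and LPS_PMMA 1, which allows up to 1.52 and 1.47 CPM there (3 counts, counting error only), and 9 to 28 reads in the other 4 libraries.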
